A study of Mus musculus with 16 samples.

Results

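Bleomycin is a glycopeptide drug that breaks DNA, and when it reaches the airways of a mouse it injures the alveolar lining and leaves an inflamed, scarring lung that is widely used as a model of pulmonary fibrosis. The comparison described here sets 4 lung libraries labelled bleomycin, with no vector, against 4 labelled control, which are 8 of the 16 libraries of the series. They were chosen by their labelled treatment, 2 libraries of each group from each of 2 batches, and the libraries of the 2 adenovirus groups were not used. The series asks about ATP12A as a target in idiopathic pulmonary fibrosis. This pump exchanges protons for potassium at the surface of epithelial cells outside the stomach. The comparison gives the difference between whole mouse lung labelled bleomycin, without vector, and lung labelled control.

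In a healthy lung, thin type 1 cells and surfactant-making type 2 cells face a dense capillary bed, and quiet fibroblasts and resident macrophages lie between them. After injury, monocytes enter and become macrophages, transitional epithelial cells appear, and activated fibroblasts lay down collagen under the influence of TGF-beta. The labels name mouse lung as the tissue and give no strain, sex, age, dose, route or day of collection. They do not say that libraries came from separate animals. The p-values therefore measure the spread between these libraries, which may be technical in part. RNA came from whole lung tissue, in which fewer cells of a type and less RNA per cell cannot be told apart.

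Values are TPM, a transcript's abundance scaled to its length and to the library's total, which keeps no read depth, so sequencing depth is unknown. A library is named by batch and replicate, so that b2r1 is replicate 1 of batch 2, and where 4 values are listed they stand in the order b1r1, b1r2, b2r1, b2r2. Fold changes are differences of log2(TPM + 1), bleomycin minus control, from a limma fit with batch as a term, and "rose" and "fell" are kept for genes with an adjusted p under 0.05 over all 16110 genes tested. Unless libraries are named, a single gene said to have risen or fallen also passed in each of the 8 fits that left out 1 library. Such calls are named stable below.

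Between 15721 and 16274 genes reached 1 TPM in a library, and mitochondrial transcripts took between 7.57% and 9.56% of the TPM. Across genes, libraries correlated with r between 0.968 and 0.979 within control, between 0.950 and 0.986 within bleomycin, and between 0.919 and 0.968 between the groups. Lung markers were present throughout: Sftpc, the surfactant protein of type 2 cells, lay between 8925 and 27449 TPM, and Nkx2-1, the transcription factor of lung epithelium, between 66.02 and 105.92 TPM. Thymic Rag1 and Dntt, squamous Krt13 and hepatic Apoa1 stayed under 0.4 TPM in every library, while hepatic Alb, squamous Krt4 and Krt5, a keratin of basal cells, reached at most 1.21, 1.15 and 1.04 TPM. Scgb1a1, the main club cell secretory protein, was far lower in control b2r1 (441 TPM) and bleomycin b2r2 (128 TPM) than in the other 6 libraries (between 32535 and 122337 TPM). Xist, the RNA of the inactive X chromosome, reached 10 TPM in 1 library of each group. It measured 117.65 TPM in control b1r1 and 143.83 TPM in bleomycin b2r1, against at most 0.49 TPM in the other 6. The batch 1 controls thus differed from each other as lungs of opposite sex would, and so did the batch 2 bleomycin libraries. Repeats of 1 lung would not differ in this way. Atp12a, the pump gene of the series title, measured 0.01, 0, 0.08 and 0.02 TPM in control and 0.01, 0, 0.20 and 0 TPM in bleomycin lungs, near 0 in all 8 and below the filter for testing.

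Of the 16110 genes, 3345 passed the test (20.8%), of which 2182 were higher (13.5%) and 1163 lower (7.22%) in bleomycin lungs. Both batches gave each of the 3345 the same direction. The calls come from both batches fitted together, which favours equal directions, so this is not separate support. Batch 1 fitted alone gave 6341 genes, 2925 of them among the 3345, and batch 2 alone gave 179, with 153 among them. Of the 3345, 1000 differed by at least 1 on the log2 scale, 710 of them higher and 290 lower. Stable calls numbered 1480 (9.19%), with 1055 higher (6.55%) and 425 lower (2.64%). The groups did not overlap in 3818 genes (23.7%), among them 2875 of the genes that passed. With quantile normalization the split was 1890 higher against 1847 lower, and with median-ratio scaling 1933 against 1688, so the size of the excess of rises depends on the scaling. Without control b1r1 or b1r2, 2119 or 1619 genes passed, and without bleomycin b1r1 or b1r2, 1598 or 1981. Without both libraries low in Scgb1a1, 2099 passed, and Aox3, Atp6v0d2, Atp6v1b1, Cat, Ctla4, Edem1, Edn3, Efnb2, Fap, Nr4a1 and Slc26a4, named as stable in the text, did not (adjusted p between 0.0569 for Cat and 0.0906 for Slc26a4). Without control b2r2, the split was 1924 higher against 1675 lower.

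**Figure D1:**
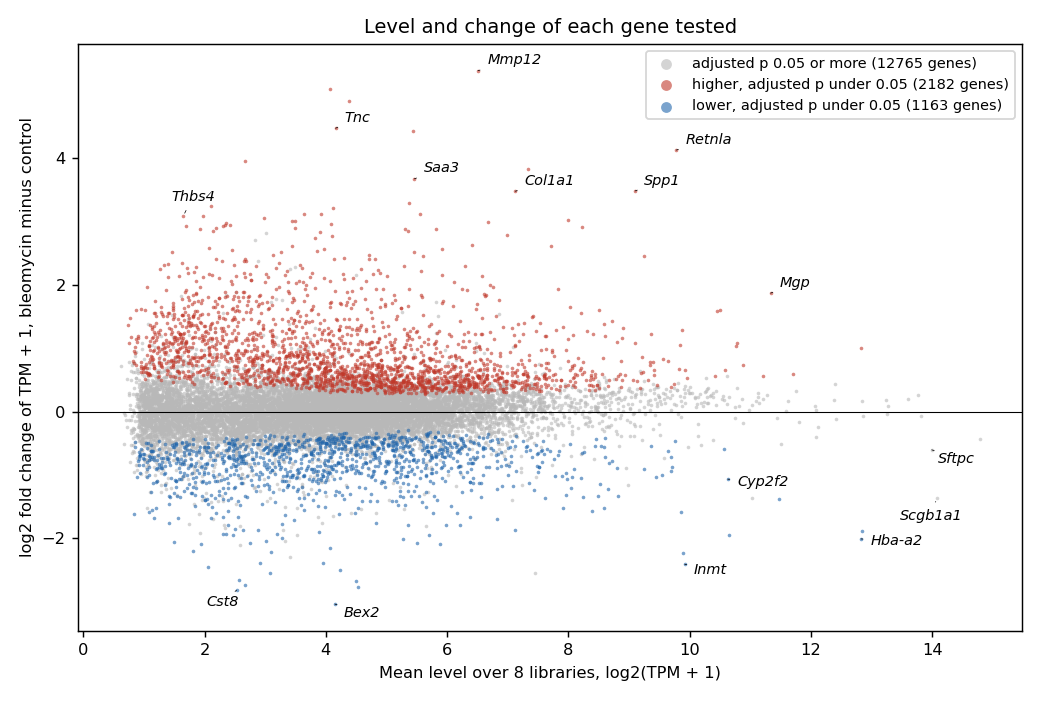
Each point is a gene tested, with its mean level over the 8 libraries on the x axis and its log2 fold change on the y axis, both from log2(TPM + 1). The 2182 genes that were higher are red and the 1163 that were lower are blue. Mmp12 (5.38) and Tnc (4.47) stand among the largest rises and Bex2 (−3.04) and Cst8 (−2.82) among the largest falls.

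One library stood nearest to the other group in most stable calls. Of the 1055 stable rises, bleomycin b2r1 was the lowest bleomycin library in 801 (75.9%), and of the 425 stable falls it was the highest in 334 (78.6%). It is also the bleomycin library in which Xist reached 10 TPM, and whether the 2 are linked was not tested. Without it, 3702 genes passed.

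Among the 15 largest rises with stable calls and no overlap were genes of matrix, macrophages and injured epithelium. Tnc, the matrix protein tenascin C, held 2.15, 3.84, 3.61 and 1.98 TPM in control and 111, 94.5, 47.6 and 95.8 TPM in bleomycin libraries (log2 fold change 4.47 with SE 0.263, adjusted p = 0.000424). Thbs4, a thrombospondin of injured tissue, was at most 0.19 TPM in control, with 0.02, 0.11, 0.19 and 0 TPM, and held 12, 8.52, 3.3 and 11.9 TPM after bleomycin (log2 fold change 3.08 with SE 0.328, adjusted p = 0.00133). Both were lowest in b2r1 among bleomycin lungs, yet every bleomycin library lay far above every control. Gpnmb, a glycoprotein of lipid-loaded macrophages, measured 25.4, 19.1, 12 and 8.36 TPM in control and 151, 73.9, 115 and 281 TPM in bleomycin libraries (log2 fold change 3.12 with SE 0.442, adjusted p = 0.00328). AA467197, a transcript also known as Nmes1 that hosts a microRNA, measured 4.39, 6.68, 2.49 and 3.78 TPM against 64, 42.2, 21.2 and 60.4 TPM (log2 fold change 3.11 with SE 0.31, adjusted p = 0.00113). Sprr2a2, a small proline-rich protein of stressed epithelium whose reads are shared with close copies, measured 0.62, 0.82, 0 and 0.12 TPM against 9.38, 10.1, 2.68 and 39.6 TPM (log2 fold change 3.09 with SE 0.627, adjusted p = 0.0118). In these 3 genes the groups were separate, although Sprr2a2 varied widely within bleomycin, with b2r2 highest and b2r1 lowest. The rest of the 15 were Mmp12, Timp1, Eln, Saa3, Spp1, Col1a1, Clec4n, Grem1, Trem2 and Cldn4, with log2 fold changes between 3.11 (Cldn4) and 5.38 (Mmp12).

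The 15 largest falls, likewise chosen among genes with stable calls and no overlap, were more mixed in function. Bex2, a small adaptor known from neurons, held 53.4, 42.6, 58.1 and 46.9 TPM in control and 1.95, 3.57, 13.2 and 6.75 TPM in bleomycin libraries (log2 fold change −3.04 with SE 0.323, adjusted p = 0.00133). Chrdl1, a secreted BMP antagonist, held 15, 14.2, 19.8 and 26.2 TPM against 2.62, 1.71, 6.43 and 6.6 TPM (log2 fold change −1.99 with SE 0.178, adjusted p = 0.00082). Control values were 2 or more times the highest bleomycin value in both genes, and the batch 2 bleomycin lungs kept more than those of batch 1. Ankrd63, an ankyrin repeat gene, measured 7.52, 8.66, 12 and 7.49 TPM against 1.39, 0.44, 0.68 and 0.79 TPM (log2 fold change −2.44 with SE 0.209, adjusted p = 0.000788). Cytl1, a small secreted protein, measured 13.7, 14.7, 19.6 and 22.5 TPM against 1.6, 1.11, 8.16 and 3.89 TPM (log2 fold change −2.21 with SE 0.257, adjusted p = 0.00161). Gria1, a glutamate receptor subunit, measured 3.87, 8.12, 8.01 and 8.91 TPM against 0.24, 0.4, 2.02 and 1.29 TPM (log2 fold change −2.09 with SE 0.225, adjusted p = 0.00133). Levels of these 3 were low even in control lungs, and by the condition of choice no bleomycin library reached a control one. Chia1, an acidic chitinase, measured 87.8, 232, 124 and 85.2 TPM against 29.7, 27.3, 32.4 and 22.6 TPM (log2 fold change −2.09 with SE 0.291, adjusted p = 0.0031), with a similar level in all 4 bleomycin lungs. Ear1, an eosinophil-associated ribonuclease that alveolar macrophages express and that has close copies, measured 123, 73.2, 57.8 and 67.6 TPM against 15.4, 15.6, 31.6 and 14.8 TPM (log2 fold change −2.01 with SE 0.299, adjusted p = 0.00385). Cst8, Nrn1, Inmt, Colq, Hbb-bt, Faim2, Hba-a1 and Ckm completed the 15, with changes between −2.82 (Cst8) and −1.94 (Ckm).

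Among the 10 most abundant genes that passed, Mgp, a matrix protein that inhibits calcification, rose from 1128, 1136, 1473 and 1773 TPM to 6663, 4841, 3224 and 5725 TPM (log2 fold change 1.87 with SE 0.256, adjusted p = 0.00291). Cbr2, a lung carbonyl reductase, fell from 3220, 3714, 6746 and 5562 TPM to 1391, 1614, 2852 and 1523 TPM (log2 fold change −1.38 with SE 0.213, adjusted p = 0.00433). Tmsb10, an actin-binding thymosin, rose from 1196, 1176, 1353 and 1119 TPM to 3081, 2804, 1902 and 2650 TPM (log2 fold change 1.09 with SE 0.16, adjusted p = 0.00371). All 3 separated the groups, and b2r1 was again the bleomycin library nearest control. Retnla, a product of alternatively activated macrophages, also rose (4.12, adjusted p = 0.00578), but control b1r2 (810 TPM) lay above bleomycin b2r1 (807 TPM). The calls of Hbb-bs and Hba-a1 were stable. That of Hba-a2 (−2.01, adjusted p = 0.0145) was lost without control b1r2 or bleomycin b1r1, and that of Ftl1 (0.60, adjusted p = 0.0154) without either of these or bleomycin b1r2. Those of Actb (0.57, adjusted p = 0.0382) and Bc1 (1.00, adjusted p = 0.0413) were lost without any 1 of 6 libraries, all but control b2r1 and bleomycin b2r1.

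**Figure D2:**
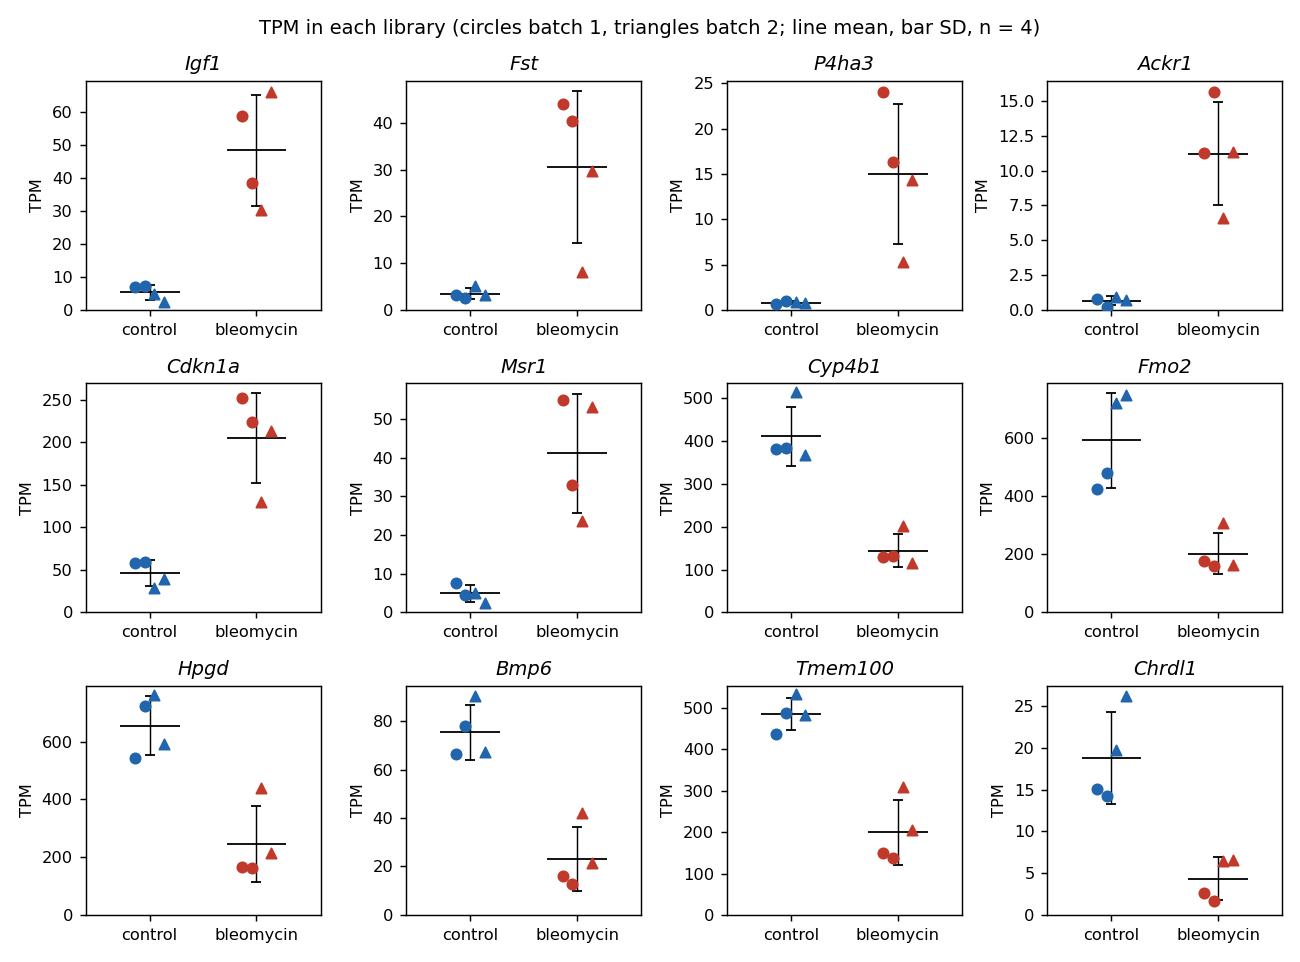
TPM of 12 genes in each of the 4 control (blue) and 4 bleomycin (red) libraries, with circles for batch 1 and triangles for batch 2, the mean as a line and the SD as a bar (n = 4). The groups do not overlap in any of the 12, and b2r1 is the bleomycin library nearest control in most of them, as in Fst (44, 40.4, 8.05 and 29.8 TPM in bleomycin).

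Scar matrix rose broadly. The gene lists used here and below were chosen with earlier results of these data known. Their shares and medians therefore describe the lists and are not separate support. Of 15 collagen genes tested, 13 rose and none fell (11 with stable calls). Their median log2 fold change was 1.81, against 0.04 for all genes tested. Col5a1, which starts collagen fibrils, held 13.8, 14.9, 16.2 and 10.3 TPM in control and 162, 118, 54.3 and 123 TPM in bleomycin libraries (log2 fold change 2.88 with SE 0.274, adjusted p = 0.00098). Its groups were separate, whereas Col12a1 (0.92, adjusted p = 0.0779) and Col14a1 (0.23, adjusted p = 0.572), which sit on the surface of fibrils, did not pass. Of 23 enzymes and chaperones that fold and crosslink collagen, 18 rose and none fell (12 stable). P4ha3, a subunit of the prolyl hydroxylase that stabilises the triple helix, went from 0.68, 1, 0.88 and 0.73 TPM to 24.1, 16.3, 5.33 and 14.4 TPM (log2 fold change 2.98 with SE 0.323, adjusted p = 0.00134). Lox, which crosslinks collagen and elastin, went from 15.5, 21.4, 18.9 and 14.8 TPM to 162, 102, 54 and 132 TPM (log2 fold change 2.51 with SE 0.288, adjusted p = 0.0016), and Loxl2, of the same family, rose by 2.10 (adjusted p = 0.00122). In P4ha3 and Lox, b1r1 was the highest and b2r1 the lowest bleomycin library, several-fold above control in each case. The hydroxylase subunit P4ha1 (−0.17, adjusted p = 0.422) did not pass.

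Of 20 matricellular proteins, which signal from the matrix rather than build it, 14 rose and none fell (12 stable). Thbs2, a thrombospondin, held 0.82, 0.73, 1.31 and 0.93 TPM in control and 15.9, 13.6, 9.92 and 16.9 TPM in bleomycin libraries (log2 fold change 2.94 with SE 0.188, adjusted p = 0.000424), without overlap. Postn, which encodes periostin, measured 139, 182, 228 and 190.2 TPM against 417, 232, 226 and 337 TPM and did not pass (0.68, adjusted p = 0.0677), with b2r1 inside the control range. Of 18 proteoglycans and hyaluronan genes, 8 rose and 4 fell (4 and 3 stable). Has2, a hyaluronan synthase, held 0.23, 0.24, 0.12 and 0.09 TPM in control and 5.76, 6.36, 2.33 and 6.28 TPM in bleomycin libraries (log2 fold change 2.33 with SE 0.238, adjusted p = 0.00118), and Vcan, the hyaluronan-binding versican, rose by 2.37 (adjusted p = 0.000676). Ogn, a small proteoglycan of resting connective tissue, moved the other way, from 269.5, 244, 207 and 367 TPM to 45.1, 37.7, 149 and 106 TPM (log2 fold change −1.87 with SE 0.317, adjusted p = 0.00605). The list had 5 risers without both libraries low in Scgb1a1. Dcn, its relative decorin, measured 172 ± 18 TPM in control and 168 ± 24.6 TPM in bleomycin lungs (SD, n = 4) and did not pass (−0.04, adjusted p = 0.825).

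Basement membrane genes rose in 11 and fell in 2 of 20 (6 and 0 stable). Col4a1, a chain of the collagen network of all basement membranes, rose by 1.56 (adjusted p = 0.00736). The alveolar chain gene Col4a3 (0.34, adjusted p = 0.401) did not pass. Metalloproteinases and their inhibitors rose in 12 of 20 and fell in none (10 stable). Mmp14, a membrane-bound collagenase, went from 38.5, 36, 35.7 and 28.1 TPM to 209, 188, 115 and 194 TPM (log2 fold change 2.29 with SE 0.167, adjusted p = 0.000559), and Mmp13, a secreted collagenase, rose by 2.92 (adjusted p = 0.00666). The abundant inhibitor Timp3 did not pass (−0.20, adjusted p = 0.249). Among 16 integrins, 5 rose (3 stable, and 3 without both libraries low in Scgb1a1) and 1 fell. Itgb6, the epithelial chain that releases active TGF-beta, rose from 22.1, 35, 23.4 and 13.9 TPM to 46.6, 48.8, 48.2 and 46.2 TPM (log2 fold change 1.05 with SE 0.208, adjusted p = 0.0109), whereas Itga8, a fibroblast integrin, fell by 1.40 (adjusted p = 0.00812). Of 23 coagulation and fibrinolysis genes, 12 rose and 2 fell (7 and 0 stable). F7, clotting factor VII, rose by 1.90 (adjusted p = 0.00153), and the plasminogen activator Plau by 1.65 (adjusted p = 0.00606).

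**Figure D3:**
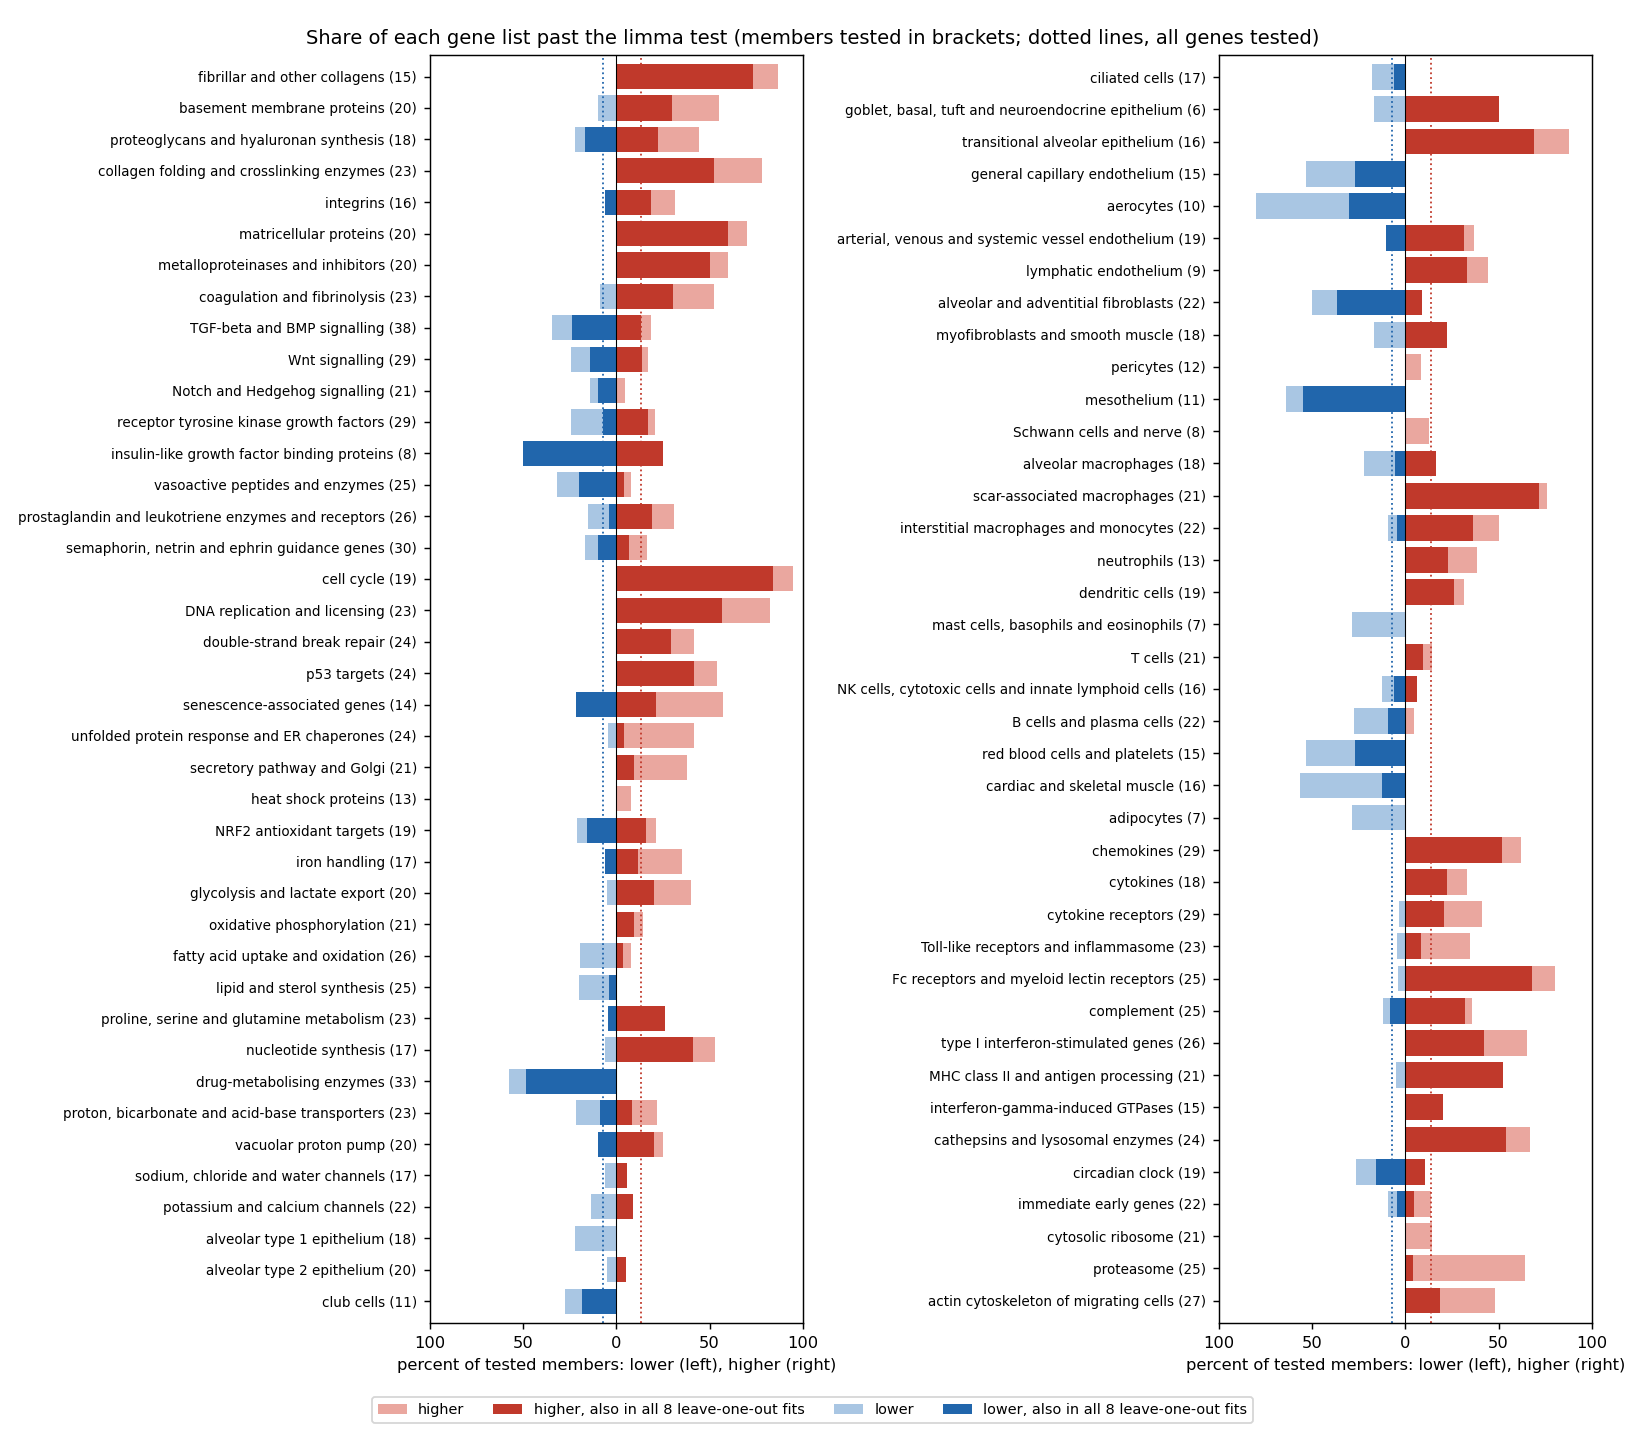
Each bar is a gene list, with the number tested in brackets and the percent of its members that were higher (right, red) or lower (left, blue). Dark parts are calls that also passed in all 8 fits leaving out 1 library. Dotted lines mark the 13.5% higher and 7.22% lower of all genes. The lists were chosen with earlier results of these data known. Cell cycle (18 of 19), transitional epithelium (14 of 16) and collagens (13 of 15) reach furthest right, and aerocytes (8 of 10), mesothelium (7 of 11) and drug-metabolising enzymes (19 of 33) reach furthest left.

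Genes of TGF-beta and BMP signalling moved both ways. Of 38 tested, 7 rose and 13 fell (5 and 9 stable), with a median of −0.16. Of all genes, 13.5% were higher and 7.22% lower. Inhba, the activin A chain, went from 1.07, 0.91, 1.1 and 1.49 TPM to 17.2, 16, 3.66 and 9.54 TPM (log2 fold change 2.38 with SE 0.353, adjusted p = 0.00381), and Ltbp2, a binding protein of elastic fibres, rose by 2.21 (adjusted p = 0.00118). Fst, the activin antagonist follistatin, chosen for its place beside Inhba after its values were seen, rose by 2.61 (adjusted p = 0.00659). In both genes b2r1 was the bleomycin library nearest to control. Bmp6, a BMP ligand of endothelium, fell from 66.4, 78, 90.5 and 67.1 TPM to 16, 12.9, 42.1 and 21.6 TPM (log2 fold change −1.79 with SE 0.256, adjusted p = 0.00334). The endothelial BMP receptors Bmpr2 and Acvrl1 fell, with log2 fold changes of −1.24 (adjusted p = 0.0117) and −1.01 (adjusted p = 0.00404), and Smad6, an inhibitor that BMP signals induce, fell by 1.47 (adjusted p = 0.00414). These 3 genes were named after their values were seen. The BMP targets Id2 (0.29, adjusted p = 0.223) and Id3 (−0.01, adjusted p = 0.952) did not pass.

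Of 29 growth factors for receptor tyrosine kinases, 6 rose and 7 fell (5 and 2 stable). The 7 falls became 3 without both libraries low in Scgb1a1. Igf1, insulin-like growth factor 1, held 7.06, 7.3, 4.76 and 2.5 TPM in control and 58.6, 38.4, 30.2 and 66.2 TPM in bleomycin libraries (log2 fold change 2.96 with SE 0.296, adjusted p = 0.00116). Every bleomycin lung had at least 4 times the highest control level. Among its 8 binding proteins, 2 rose and 4 fell, all with stable calls. Igfbp6 fell from 170, 207, 261 and 182 TPM to 53.5, 64.3, 83.1 and 50.9 TPM (log2 fold change −1.69 with SE 0.181, adjusted p = 0.00133) and Igfbp3 fell by 1.41 (adjusted p = 0.00455), while Igfbp7 rose by 1.08 (adjusted p = 0.00775). Of 29 Wnt pathway genes, 5 rose and 7 fell (4 and 4 stable, and 4 lower without both libraries low in Scgb1a1). Their median was 0.03, and it was −0.02 with quantile and −0.03 with median-ratio scaling. Sfrp1, a secreted antagonist, rose by 2.25 (adjusted p = 0.00214), Dkk2, another, by 1.66 (adjusted p = 0.00404), while the ligand Wnt10b fell by 1.36 (adjusted p = 0.00333). Of 21 Notch and Hedgehog genes, 1 rose and 3 fell (0 and 2 stable, and 1 lower without both libraries low in Scgb1a1). The shares of all genes were 13.5% higher and 7.22% lower.

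Of 25 vasoactive peptides, receptors and enzymes, 2 rose and 8 fell (1 and 5 stable). Ednrb, the endothelin B receptor of aerocytes, fell from 38.8, 45.4, 77.2 and 49.8 TPM to 8.87, 9.92, 25.5 and 18.8 TPM (log2 fold change −1.76 with SE 0.189, adjusted p = 0.00133), and Edn3, an endothelin, fell by 1.09 (adjusted p = 0.0134). Nos2, inducible nitric oxide synthase, rose by 1.38 (adjusted p = 0.0092). The 8 falls became 3 without both libraries low in Scgb1a1. Among 26 prostaglandin and leukotriene genes, 8 rose and 4 fell (5 and 1 stable, and 2 lower without both libraries low in Scgb1a1). Hpgd, which inactivates prostaglandins, fell from 544, 723, 760.2 and 592 TPM to 165, 164, 439 and 214 TPM (log2 fold change −1.53 with SE 0.257, adjusted p = 0.00578). Hpgds, a prostaglandin D synthase, rose by 1.61 (adjusted p = 0.00243).

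Genes of dividing cells rose together. Of 19 cell cycle genes, 18 rose and none fell (16 stable), with a median of 1.81. Cdk1, the kinase of mitotic entry, held 7.55, 6.63, 6.14 and 3.12 TPM in control and 46.6, 51.8, 31.8 and 49.1 TPM in bleomycin libraries (log2 fold change 2.77 with SE 0.202, adjusted p = 0.000559). Top2a, the topoisomerase of dividing cells, held 8.19, 9.07, 9.78 and 6.01 TPM against 40.2, 43.8, 26.7 and 56.3 TPM (log2 fold change 2.18 with SE 0.229, adjusted p = 0.00126). Neither gene's groups overlapped, and b2r1 lay 3-fold or more above the mean of controls in both. The spindle checkpoint gene Bub1b measured 0.99 (adjusted p = 0.0502), just outside the threshold. Promoter windows of this list were examined because its genes moved together. Those of Cdk1 and Top2a were picked for showing among stable risers whose window holds both motifs described next. Their matches therefore do not describe the list. The 250 bases before the start site, from RefSeq on GRCm38.p6 and on the minus strand, carry in capitals TTTGAA, the core of the cell cycle homology region, and CCAAT, the box bound by NF-Y, searched on both strands, so that TTCAAA and ATTGG mark the reverse strand. Cdk1 (chr10:69352913-69353162) has 2 TTTGAA and 3 CCAAT, and Top2a (chr11:99024190-99024439) has 2 and 6.
Cdk1: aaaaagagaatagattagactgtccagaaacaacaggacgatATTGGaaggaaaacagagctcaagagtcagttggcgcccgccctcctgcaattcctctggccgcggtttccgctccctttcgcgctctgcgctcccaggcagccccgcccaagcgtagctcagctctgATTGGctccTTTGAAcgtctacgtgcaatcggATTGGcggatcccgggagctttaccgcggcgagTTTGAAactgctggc
Top2a: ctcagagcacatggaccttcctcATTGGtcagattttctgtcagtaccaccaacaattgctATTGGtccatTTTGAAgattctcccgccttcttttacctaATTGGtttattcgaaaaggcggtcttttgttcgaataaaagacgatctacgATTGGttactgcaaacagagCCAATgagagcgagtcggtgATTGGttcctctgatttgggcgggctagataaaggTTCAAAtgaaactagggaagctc
RefSeq held a window for 15 of the 19 cell cycle genes. TTTGAA and CCAAT do not overlap each other, and both were present in 6 of the 15 windows (40%), against 5.55% of all 32851 windows. CCAAT was present in 12 of 15 (80%), against 33.8% of all windows. For the DNA replication list, which also rose, both were present in 2 of 24 windows (8.33%), TTTGAA in 3 of 24, a share below the 16% of all windows, and CCAAT in 14 (58.3%). A match is a description of these letters and not a shown binding site.

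Of 23 genes of DNA replication, 19 rose and none fell (13 stable), led by Mcm3, a helicase subunit (1.29, adjusted p = 0.00513). Nucleotide synthesis rose in 9 of 17 genes and fell in 1 (7 and 0 stable), with Rrm2, the regulated subunit of ribonucleotide reductase, going from 4.51, 5.67, 6.01 and 3.24 TPM to 26.1, 27.2, 13.3 and 29.4 TPM (log2 fold change 2.06 with SE 0.252, adjusted p = 0.00197). Bleomycin cuts both DNA strands, and of 24 genes of double-strand break repair 10 rose and none fell (7 stable). Rad51ap1, a factor of homologous recombination, rose by 1.89 (adjusted p = 0.00218) and Exo1, a nuclease that trims broken ends, by 1.39 (adjusted p = 0.00681). Xrcc5, an end-joining factor that does not vary with the cell cycle, did not pass (0.10, adjusted p = 0.458). Of 24 targets of p53, 13 rose and none fell (10 stable). Cdkn1a, the cell cycle inhibitor p21, held 57.9, 59.2, 28.4 and 39.3 TPM in control and 253, 224, 129.9 and 213 TPM in bleomycin libraries (log2 fold change 2.14 with SE 0.173, adjusted p = 0.000781). All 4 bleomycin lungs lay above all controls, and Eda2r, a death-domain receptor, rose by 1.23 (adjusted p = 0.00666). Btg2, another target, did not pass (−0.16, adjusted p = 0.457).

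Of 24 genes of the unfolded protein response, 10 rose and 1 fell, with a median of 0.29, but the call was stable in 1, Edem1 (0.48, adjusted p = 0.0155), and the chaperone Hspa5 did not pass (0.31, adjusted p = 0.228). Without both libraries low in Scgb1a1, 4 of the unfolded protein response and 4 of the secretory pathway rose. Of 21 secretory pathway genes, 8 rose and none fell (2 stable), with Kdelr3, a receptor that returns chaperones to the endoplasmic reticulum, going from 8.91, 8.51, 8.41 and 7.18 TPM to 37.5, 30.4, 20.1 and 31.9 TPM (log2 fold change 1.71 with SE 0.16, adjusted p = 0.000928). Proteasome subunits rose in 16 of 25 and fell in none, with a median of 0.39, and 1 call was stable, Psma2 (0.50, adjusted p = 0.0103). Of 27 actin genes of migrating cells, 13 rose and none fell (5 stable), and in the fit without both libraries low in Scgb1a1 the number was 8.

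Drug-metabolising enzymes, which club cells and alveolar cells use to oxidise and conjugate inhaled chemicals, were lower as a group. Of 33 tested, 19 fell and none rose (16 stable), with a median of −0.87 (−0.86 in batch 1 and −0.84 in batch 2). Fmo2, the flavin monooxygenase of lung, held 424, 478, 717 and 745 TPM in control and 177, 160.4, 306 and 162 TPM in bleomycin libraries (log2 fold change −1.56 with SE 0.187, adjusted p = 0.00184). Cyp4b1, a lung cytochrome P450, held 381, 382, 513 and 366 TPM against 129, 132, 201 and 115 TPM (log2 fold change −1.52 with SE 0.178, adjusted p = 0.00162). Aox3, an aldehyde oxidase, held 99.8, 67.4, 83.1 and 66.9 TPM against 18.2, 24.4, 57.9 and 25.1 TPM (log2 fold change −1.43 with SE 0.302, adjusted p = 0.0138). In all 3 genes b2r1 was the highest bleomycin library and still lay below every control. Ephx1, an epoxide hydrolase, did not pass (−0.25, adjusted p = 0.0919). Neither did Blmh, bleomycin hydrolase, which inactivates the drug and was named after its values were seen (33.3, 33.2, 38.1 and 24.2 TPM in control, 33.5, 32.7, 37.5 and 50.9 TPM in bleomycin, 0.25, adjusted p = 0.346).

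Antioxidant genes of the NRF2 response passed in both directions, with 4 of 19 higher and 4 lower (3 and 3 stable, and 2 lower without both libraries low in Scgb1a1). Hmox1, which breaks down haem, rose from 42.1, 30.7, 39.8 and 27.4 TPM to 84.2, 66.8, 61.8 and 83.3 TPM (log2 fold change 1.07 with SE 0.168, adjusted p = 0.00465), while the glutathione transferase Gsta3 fell by 1.36 (adjusted p = 0.00367) and the catalase gene Cat fell by 0.87 (adjusted p = 0.00894). Among 17 iron genes, 6 rose and 1 fell (2 and 1 stable). Hamp, the iron hormone hepcidin, fell from 5.2, 9.25, 11.8 and 10.1 TPM to 2.25, 0.63, 3.99 and 1.43 TPM (log2 fold change −1.78 with SE 0.3, adjusted p = 0.00578), and Slc11a1, an iron exporter of phagosomes, rose by 1.24 (adjusted p = 0.0108). Of 20 glycolysis genes, 8 rose and 1 fell (4 and 0 stable), such as Ldha, lactate dehydrogenase (0.80, adjusted p = 0.00659), and Hk3, a myeloid hexokinase (1.35, adjusted p = 0.00915). Oxidative phosphorylation rose in 3 of 21 (2 stable), a share near that of all genes. Arg1, arginase 1, which feeds arginine into ornithine and proline, rose from 3.37, 3.8, 2.87 and 2.58 TPM to 34.4, 19.2, 11.1 and 17.1 TPM (log2 fold change 2.27 with SE 0.221, adjusted p = 0.00106), and Psat1, of serine synthesis, by 1.20 (adjusted p = 0.0133). They belong to a list of proline, serine and glutamine metabolism in which 6 of 23 rose and 1 fell, all with stable calls. Lipid and sterol synthesis fell in 5 of 25 (1 stable, and 3 without both libraries low in Scgb1a1) and rose in none, with medians of −0.53 in batch 1 and 0.13 in batch 2.

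Because the series concerns a proton pump, acid-base genes were described as a list. Of 23 transporters of protons and bicarbonate and related ATPases, 5 rose and 5 fell (2 and 2 stable), with a median of −0.02. Without both libraries low in Scgb1a1, 2 rose and 2 fell. Slc26a4, the anion exchanger pendrin, rose from 5.22, 6.16, 1.74 and 1.08 TPM to 9.2, 11.2, 17.7 and 16.7 TPM (log2 fold change 1.84 with SE 0.4, adjusted p = 0.0153), more in batch 2 (2.93) than in batch 1 (0.74), a difference that did not pass the interaction test (adjusted p = 0.0508). Hvcn1, the voltage-gated proton channel of phagocytes, rose by 0.93 (adjusted p = 0.0134). Slc4a5, a sodium bicarbonate cotransporter, fell by 1.05 (adjusted p = 0.00384). Subunits of the vacuolar proton pump moved both ways, with 5 of 20 higher and 2 lower (4 and 2 stable). Tcirg1 and Atp6v0d2, which osteoclasts and macrophages use, rose from 32.7, 30.4, 41.8 and 42.2 TPM to 118, 98.3, 64.8 and 86.2 TPM (log2 fold change 1.28 with SE 0.195, adjusted p = 0.00417) and by 1.17 (adjusted p = 0.0138). The epithelial isoforms Atp6v1c2 and Atp6v1b1 fell from 71.9, 76.3, 84.2 and 62.1 TPM to 24.3, 24.1, 49.3 and 22.4 TPM (log2 fold change −1.34 with SE 0.234, adjusted p = 0.0068) and from 2.8, 3.94, 5.23 and 8.19 TPM to 1.75, 1.83, 1.33 and 1.79 TPM (log2 fold change −1.10 with SE 0.233, adjusted p = 0.0138). Of 22 potassium and calcium channel genes, 2 rose and 3 fell (2 and 0 stable), with a median of −0.09. Of 17 sodium, chloride and water channel genes, 1 rose and 1 fell (1 and 0 stable), with a median of −0.04. In both channel lists the share that rose was below the 13.5% of all genes. Kcnn4, a calcium-activated potassium channel, rose by 1.68 (adjusted p = 0.00153), and Fxyd5, a sodium pump regulator, by 1.27 (adjusted p = 0.00232).

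Few type 2 cell markers passed, some type 1 cell markers fell without stable calls, and most markers of the transitional state rose. Of 18 type 1 cell markers, 4 fell and none rose, against 7.22% lower and 13.5% higher of all genes. None of these calls was stable, and 1 marker fell without both libraries low in Scgb1a1. Cav1, caveolin of type 1 and endothelial cells, lost its call (−0.93, adjusted p = 0.0413) without any 1 of 6 libraries, all but control b2r2 and bleomycin b2r1, and Hopx (−0.71, adjusted p = 0.0173) without control b1r2 or bleomycin b1r1. Ager, the receptor RAGE of type 1 cells, did not pass (−0.10, adjusted p = 0.733). Of 20 type 2 markers, 1 rose and 1 fell (1 and 0 stable), and the list's median was −0.9995 in batch 1 and 0.14 in batch 2. Sftpc measured 17929, 16036, 27449 and 20672 TPM against 8925, 12924, 23409 and 11360 TPM and did not pass (−0.60, adjusted p = 0.152), its groups overlapping. The riser was Cd74, the invariant chain, which antigen-presenting cells share (0.74, adjusted p = 0.00938). Among 16 genes that mark the transitional state, 14 rose and none fell (11 stable). Sfn, the p53-induced 14-3-3 sigma, held 13.7, 15.2, 11.6 and 11.2 TPM in control and 89.6, 100, 30.2 and 55 TPM in bleomycin libraries (log2 fold change 2.19 with SE 0.227, adjusted p = 0.00122), and Tnip3, an inhibitor of NF-kappaB, rose by 2.41 (adjusted p = 0.00118). In both, b2r1 was the lowest bleomycin library and lay above every control.

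In the airways, 3 of 11 club cell markers fell (2 stable) and none rose. Cyp2f2, a club cell P450, fell from 2051, 1879, 2972 and 2404 TPM to 1048, 1084, 1545 and 816 TPM (log2 fold change −1.07 with SE 0.206, adjusted p = 0.00984), and in the libraries low in Scgb1a1 it measured 2972 and 816 TPM. Aldh1a1 fell by 1.01 (adjusted p = 0.0103). Of 17 ciliated cell markers, 3 fell and none rose, with 1 stable call, Tppp3, a tubulin binder of cilia, from 390.1, 432, 441 and 441 TPM to 203, 226, 267 and 146 TPM (log2 fold change −1.05 with SE 0.177, adjusted p = 0.00602). Of 18 listed markers of goblet, basal, tuft and neuroendocrine cells, 6 were tested, of which 3 rose and 1 fell (3 and 0 stable). The risers were Agr2, Dclk1 and Calca. Dclk1, a tuft cell kinase, went from 3.99, 3.39, 3.11 and 3.89 TPM to 9.71, 8.24, 8.2 and 14.4 TPM (log2 fold change 1.25 with SE 0.184, adjusted p = 0.00374), and Calca, a neuroendocrine peptide precursor, rose by 0.96 (adjusted p = 0.00513).

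Many capillary markers fell, and several markers of larger vessels rose. Of 15 general capillary markers, 8 fell (4 stable), and of 10 markers of aerocytes, a capillary type specialised for gas exchange, 8 fell (3 stable), with none higher in either. Tmem100, a BMP-dependent capillary gene, held 437, 487, 533 and 484 TPM in control and 149, 137, 308 and 205 TPM in bleomycin libraries (log2 fold change −1.35 with SE 0.178, adjusted p = 0.0025). Fibin, an aerocyte gene, fell by 1.60 (adjusted p = 0.0038) and Kdr, the VEGF receptor, fell by 1.13 (adjusted p = 0.00963). The pan-endothelial Pecam1 did not pass (−0.55, adjusted p = 0.0632). Without both libraries low in Scgb1a1, 2 general capillary and 4 aerocyte markers fell. Medians were −1.09 in batch 1 and −0.37 in batch 2 for general capillary markers, and −0.76 and −0.64 for aerocytes. These differences between batches were not tested. Of 19 markers of arteries, veins and systemic vessels, 7 rose and 2 fell (6 and 2 stable), while 10 did not pass. The median of this list was 0.10, with −0.05 in batch 1 and 0.13 in batch 2. Its risers include the matrix gene Mgp. Ackr1, the chemokine scavenger of venules, held 0.8, 0.21, 0.94 and 0.7 TPM in control and 11.2, 15.7, 6.61 and 11.4 TPM in bleomycin libraries (log2 fold change 2.85 with SE 0.255, adjusted p = 0.00082), a clear gap in both batches. Lymphatic markers rose in 4 of 9 (3 stable) and fell in none, with Ccl21a, the chemokine of lymphatics (which has close copies), from 162, 151, 152 and 136 TPM to 273, 265, 325 and 326 TPM (log2 fold change 0.98 with SE 0.108, adjusted p = 0.00139) and Prox1, the lymphatic master factor, by 0.80 (adjusted p = 0.0139).

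Many markers of resting fibroblasts fell, and several of activated ones rose. Of 22 markers of alveolar and adventitial fibroblasts, 11 fell and 2 rose (8 and 2 stable). The list's median was −0.90 in batch 1 and −0.16 in batch 2, a difference that was not tested. Gsn, gelsolin, fell from 1371, 1493, 2051 and 1553 TPM to 388, 386, 950.2 and 578 TPM (log2 fold change −1.58 with SE 0.2, adjusted p = 0.00224), and Slc7a10, an amino acid transporter of alveolar fibroblasts, fell by 1.70 (adjusted p = 0.00244). Of 18 myofibroblast and smooth muscle markers, 4 rose and 3 fell (4 and 0 stable, and 0 lower without both libraries low in Scgb1a1). The risers were Cthrc1, Adam12, Lrrc15 and Fap, all genes of activated fibroblasts. Cthrc1 held 6.17, 5.03, 8.37 and 7.2 TPM in control and 64.8, 53.6, 17.4 and 38.9 TPM in bleomycin libraries (log2 fold change 2.41 with SE 0.348, adjusted p = 0.00351). Lrrc15 was at most 0.06 TPM in control and held 2.47, 1.53, 1.16 and 1.65 TPM in bleomycin libraries (log2 fold change 1.36 with SE 0.17, adjusted p = 0.00214). The contractile gene Acta2 measured 114, 153, 151 and 117 TPM against 338, 181, 105 and 229 TPM and did not pass (0.56, adjusted p = 0.216), with b2r1 below every control. The pericyte list had 1 riser of 12, Cspg4 (1.05, adjusted p = 0.0386), whose call was lost without any 1 of 6 libraries, all but control b2r1 and bleomycin b2r1, and its median of 0.02 changed sign under both scalings. Mesothelial markers fell in 7 of 11 and rose in none (6 stable), as in Gpm6a (53.5, 71.2, 68.7 and 74 TPM in control, 21.8, 25.8, 31.5 and 31.9 TPM in bleomycin, log2 fold change −1.25 with SE 0.118, adjusted p = 0.00098), while Msln, mesothelin, did not pass (0.75, adjusted p = 0.126).

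Macrophages of the scarred lung were marked by 21 genes, of which 16 rose and none fell (15 stable). Their summed level was between 4013 and 5854 TPM in control and between 9835 and 22866 TPM in bleomycin libraries. Of 22 markers of interstitial macrophages and monocytes, 11 rose and 2 fell (8 and 1 stable, and 0 lower without both libraries low in Scgb1a1). Ms4a7, a membrane protein of interstitial macrophages, went from 7.41, 4.48, 5.61 and 4.61 TPM to 36.3, 17.8, 22.6 and 36.1 TPM (log2 fold change 2.12 with SE 0.256, adjusted p = 0.00187). Resident alveolar macrophage markers rose in 3 and fell in 4 of 18 (3 and 1 stable, and 1 lower without both libraries low in Scgb1a1), with medians of −0.39 in batch 1 and 0.68 in batch 2. Of 25 Fc receptors and myeloid lectin receptors, 20 rose and 1 fell (17 and 0 stable). Msr1, a scavenger receptor, held 7.68, 4.45, 5.03 and 2.47 TPM in control and 54.9, 33, 23.6 and 53 TPM in bleomycin libraries (log2 fold change 2.83 with SE 0.311, adjusted p = 0.00138), and Fcgr2b, the inhibitory IgG receptor, rose by 2.16 (adjusted p = 0.00126). Marco, a scavenger receptor of resident macrophages, did not pass (0.52, adjusted p = 0.599) and measured −0.95 in batch 1 and 2.00 in batch 2. Of 24 cathepsins and lysosomal enzymes, 16 rose and none fell (13 stable), such as Lgmn, legumain, from 104, 104, 116 and 80.7 TPM to 360.2, 271, 204 and 335 TPM (log2 fold change 1.50 with SE 0.185, adjusted p = 0.00204), and Ctsk, the collagen-cutting cathepsin K, by 1.71 (adjusted p = 0.00153).

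Neutrophil genes rose in 5 of 13 (3 stable, and 3 without both libraries low in Scgb1a1) and fell in none, but the most abundant, S100a9 (333, 353, 350 and 99.5 TPM against 90.3, 55.3, 335 and 134 TPM), did not pass (−1.04, adjusted p = 0.239). The list's median was −1.13 in batch 1 and 0.36 in batch 2. Of 19 dendritic cell genes, 6 rose and none fell (5 stable). Fscn1, the actin bundler of mature dendritic cells, held 13.9, 10.5, 16.2 and 8.51 TPM in control and 59.6, 59.5, 44.9 and 67.7 TPM in bleomycin libraries (log2 fold change 2.17 with SE 0.207, adjusted p = 0.00098), and Ccl17, a chemokine of the same cells, 14.7, 13.4, 15.5 and 13.8 TPM against 72.3, 76.5, 48.6 and 72 TPM (log2 fold change 2.14 with SE 0.146, adjusted p = 0.000536). Both were several-fold above control in all 4 bleomycin lungs, while Irf8, which the lineage needs, did not pass (0.28, adjusted p = 0.259). T cell genes rose in 3 of 21 (2 stable, and 1 without both libraries low in Scgb1a1), near the share of all genes. Pdcd1, the checkpoint receptor PD-1, went from 0.45, 0.3, 0.51 and 0.58 TPM to 1.89, 1.44, 2.69 and 4.57 TPM (log2 fold change 1.25 with SE 0.198, adjusted p = 0.00472), and Ctla4 rose by 0.83 (adjusted p = 0.0153), whereas the T cell receptor constant gene Trbc2 did not pass (0.28, adjusted p = 0.117). Among 22 B cell and plasma cell genes, 1 rose and 6 fell (0 and 2 stable, and 4 lower without both libraries low in Scgb1a1). The median of this list was −1.12 in batch 1 and 0.35 in batch 2, and between −0.71 and 0.04 with 1 library left out. Cd79a, a B cell receptor chain, fell from 39.4, 48.4, 60.3 and 57.7 TPM to 15.5, 19.1, 40.8 and 39.6 TPM (log2 fold change −0.92 with SE 0.167, adjusted p = 0.00808), although bleomycin b2r1 and b2r2 lay just above the lowest control.

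Of 29 chemokines, 18 rose and none fell (15 stable), with a median of 0.98. Ccl2, which draws monocytes, held 1.35, 1.03, 2.71 and 2.23 TPM in control and 47.7, 25.1, 6.5 and 26.9 TPM in bleomycin libraries (log2 fold change 3.05 with SE 0.507, adjusted p = 0.00565). Ccl9, a macrophage chemokine, held 30.2, 12.7, 19.9 and 19.6 TPM against 229, 104, 91.4 and 242 TPM (log2 fold change 2.88 with SE 0.378, adjusted p = 0.00246). The groups were separate in both, with b2r1 lowest. The abundant epithelial chemokine Cxcl15 did not pass (−0.56, adjusted p = 0.395), measuring −1.67 in batch 1 and 0.54 in batch 2. Of 18 cytokines, 6 rose (4 stable) and none fell, among them Il1rn, the IL-1 receptor antagonist, from 10.7, 10.3, 5.59 and 5.01 TPM to 79.3, 42.6, 19.9 and 57.9 TPM (log2 fold change 2.42 with SE 0.313, adjusted p = 0.00236), and Lif and Osm, of the IL-6 family, by 1.62 (adjusted p = 0.0105) and by 1.10 (adjusted p = 0.00629). Il33, an alarmin of type 2 cells, did not pass (−0.22, adjusted p = 0.733). Cytokine receptors rose in 12 and fell in 1 of 29 (6 and 0 stable), with Csf2ra, the GM-CSF receptor chain, up by 1.44 (adjusted p = 0.00153). In this list, 6 rose without both libraries low in Scgb1a1. Complement genes rose in 9 and fell in 3 of 25 (8 and 2 stable). C3ar1, the receptor for C3a, rose by 2.47 (adjusted p = 0.00262), while C3 itself did not pass (0.13, adjusted p = 0.482).

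Of 26 genes induced by type I interferon, 17 rose and none fell (11 stable), with a median of 0.70. Isg15, a ubiquitin-like modifier, held 18.7, 13, 24.3 and 12.2 TPM in control and 78.8, 80, 29.4 and 52 TPM in bleomycin libraries (log2 fold change 1.70 with SE 0.312, adjusted p = 0.00825). Oas1a, an antiviral synthetase whose reads are partly shared with close copies, held 7.58, 4.58, 7.48 and 4.11 TPM against 18.8, 15.4, 15.8 and 19.6 TPM (log2 fold change 1.44 with SE 0.202, adjusted p = 0.0032). The groups were separate in both, and Isg15 in b2r1 lay near the highest control. Both promoters are shown for the interferon-stimulated response element that such genes share, and were picked among stable risers whose window holds the motif marked below. The windows are again the 250 bases before the start in RefSeq on GRCm38.p6, minus strand, at chr4:156200819-156201068 for Isg15 and chr5:120907526-120907775 for Oas1a. Capitals mark GAAANNGAAA, searched on both strands, whose matches overlap, with 3 in Isg15 and 2 in Oas1a.
Isg15: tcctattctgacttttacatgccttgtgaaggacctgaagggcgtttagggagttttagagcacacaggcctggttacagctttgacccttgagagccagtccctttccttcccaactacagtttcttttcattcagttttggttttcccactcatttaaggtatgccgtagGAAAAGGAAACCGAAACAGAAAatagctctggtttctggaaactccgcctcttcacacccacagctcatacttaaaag
Oas1a: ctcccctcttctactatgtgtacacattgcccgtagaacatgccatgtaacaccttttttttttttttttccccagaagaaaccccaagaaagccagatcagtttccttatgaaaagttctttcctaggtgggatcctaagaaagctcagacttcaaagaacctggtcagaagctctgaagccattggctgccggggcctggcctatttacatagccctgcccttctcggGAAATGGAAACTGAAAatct
RefSeq held windows for 18 of the 26 genes. The motif was present in 8 of their 20 windows (40%), against 2.98% of all 32851 windows. Of 21 genes of MHC class II and antigen processing, 11 rose and 1 fell (11 and 0 stable). H2-Ab1, a class II chain, went from 462, 398, 458 and 441 TPM to 786, 753, 735 and 914 TPM (log2 fold change 0.85 with SE 0.108, adjusted p = 0.00224), and the costimulator Cd86 rose by 1.30 (adjusted p = 0.00122).

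Markers of tissue around and within the lung also differed. Of 15 genes of red blood cells and platelets, 8 fell and none rose (4 stable), and their summed level was between 16981 and 51601 TPM in control and between 5988 and 14249 TPM in bleomycin libraries. Hbb-bs, an adult beta-globin, held 15789, 17131, 20454 and 7122 TPM against 2659, 3399, 4099 and 5703 TPM (log2 fold change −1.89 with SE 0.369, adjusted p = 0.0103). Of 16 cardiac and skeletal muscle genes, 9 fell and none rose (2 stable). Their sums were between 464 and 948 TPM in control and between 122 and 586 TPM in bleomycin libraries, with Actc1, cardiac actin, at 135, 118, 83.6 and 139 against 19, 19.7, 78.2 and 40.8 TPM (log2 fold change −1.78 with SE 0.368, adjusted p = 0.0127). Of 7 adipocyte genes, 2 fell, neither with a stable call. The blood sums did not overlap between the groups, whereas the muscle sums and those of adipocytes (44.1 to 155 against 17.3 to 102 TPM) did, and no marker of the 3 lists was at 0 in all 8 libraries. Because TPM shares 1 total, a lower share of globin or of Scgb1a1 raises the values of other genes. Scgb1a1 alone took 10.5%, 10.3%, 0.04% and 12.2% of the TPM in control libraries. In bleomycin libraries it took 4.45%, 7.21%, 3.25% and 0.01%. The part of blood, heart or fat in any other result was not tested.

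The clock genes showed a batch pattern. Controls of batch 1 held more Arntl, which encodes the activator BMAL1, and less of its targets Dbp and Per2 than controls of batch 2. Arntl held 16.1, 8.75, 1.53 and 1.98 TPM in control and 5.43, 3.75, 4.67 and 9.21 TPM in bleomycin libraries, and its log2 fold change was −1.23 in batch 1 and 1.47 in batch 2. Per2 held 5.1, 7.61, 28.8 and 28 TPM against 13.6, 14.4, 13.7 and 7.82 TPM, with 1.05 and −1.37 by batch. Neither passed (adjusted p = 0.893 and 0.833), nor did Dbp (adjusted p = 0.0816), with −0.34 and −1.66 by batch. Of 19 clock genes, 2 rose and 5 fell (2 and 3 stable, and 3 lower without both libraries low in Scgb1a1), and the median was −0.03 in batch 1 and −0.94 in batch 2. Nr1d1, the repressor REV-ERB alpha, fell from 83, 109, 166 and 101 TPM to 18.6, 25.9, 76.5 and 60.1 TPM (log2 fold change −1.49 with SE 0.271, adjusted p = 0.00801) in both batches, and Hlf, a clock output factor, fell by 1.29 (adjusted p = 0.00818) with overlapping groups. The labels give no hour of collection, so the hour cannot be told apart from the batch or from the treatment. This holds for the falls of Nr1d1 and Hlf too. Arntl and Per2 were named after their values were seen.

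**Figure D4:**
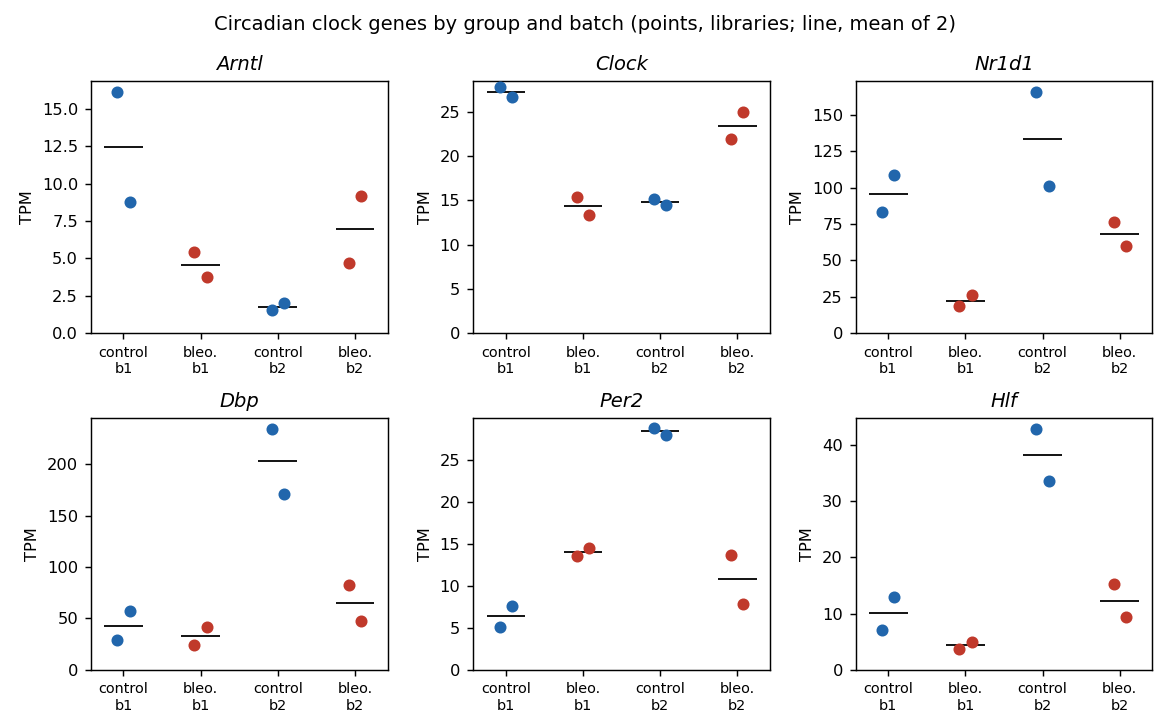
TPM of 6 clock genes in the 2 libraries of each group and batch (b1 and b2, batches; points, libraries; line, mean of 2). Arntl is highest and Dbp and Per2 are low in batch 1 controls, the reverse holds in batch 2 controls, and Nr1d1 is lower in bleomycin lungs of both batches.

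A test of whether the 2 batches responded differently to bleomycin, as an interaction term, was passed by 17 of 16110 genes (0.106%), with 3626 at an unadjusted p under 0.05. Clock itself, the partner of BMAL1, held 27.8, 26.6, 15.1 and 14.4 TPM in control and 15.4, 13.3, 21.9 and 25 TPM in bleomycin libraries, −0.88 in batch 1 and 0.63 in batch 2 (interaction 1.51, SE 0.181, adjusted p = 0.0497). Calcrl, a capillary receptor for adrenomedullin, held 873, 794, 792 and 598 TPM against 198, 165, 635 and 644 TPM, −2.20 and −0.11 by batch (2.09, SE 0.23, adjusted p = 0.0497). It was several-fold lower in batch 1 bleomycin lungs and within the control range in batch 2. Prex2, Rasgrp3, Mob1b, St6galnac3, Fam124b and AI197445 also had higher values of the effect in batch 2 than in batch 1, and Usp2 and Vpreb3 lower ones. The count depended on single libraries, with 0 genes without control b2r2 and 890 without control b2r1. Across lists, medians of opposite sign by batch were those of alveolar macrophages, neutrophils, B cells, type 2 cells and lipid synthesis among others, and these differences were not tested.

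**Figure D5:**
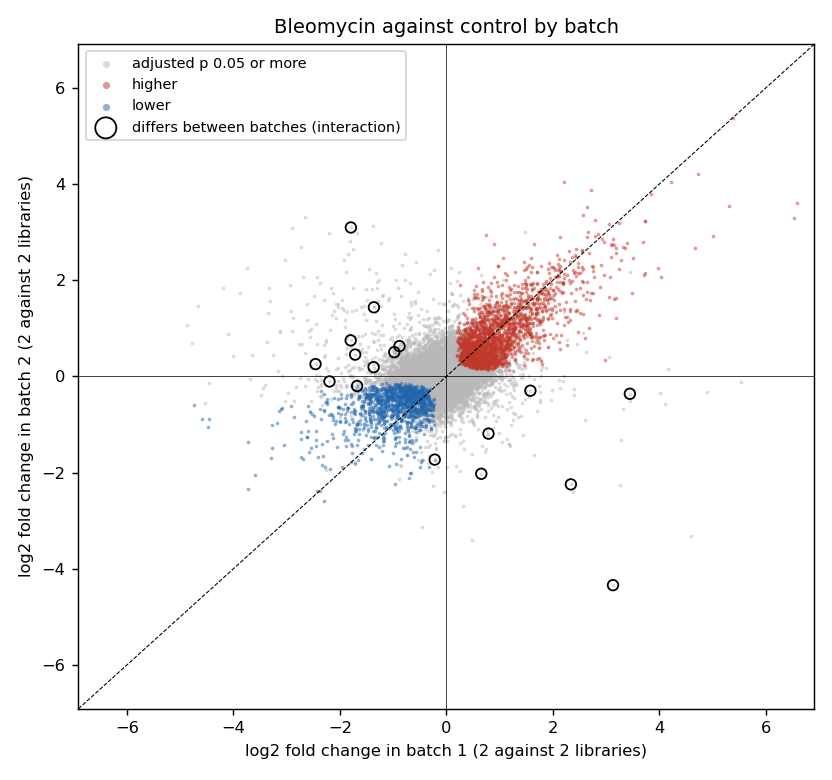
Log2 fold change of each gene in batch 1 (x axis) and batch 2 (y axis), each from 2 libraries against 2, with the 2182 higher genes in red, the 1163 lower in blue and the 17 that passed the interaction test circled. Called genes lie in the 2 quadrants of equal sign, while circled genes lie off the dashed line of equality, positions that the tests choosing them favour.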

How the data were processed

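RNA sequencing of mouse lung was analysed in 8 of 16 libraries, 4 control and 4 bleomycin, 2 of each per batch as the titles give it. Reads were aligned and quantified with STAR and RSEM against GRCm39, per the submitters' processing notes; versions and read totals are not given in the sources used here. The authors deposited log2 values of TPM plus 1 for 53647 identifiers, read from the values, since columns turned back to TPM sum to between 999999.12 and 1000000.82. Because TPM keeps no depth, the precision from counting is unknown. Symbols came from a GENCODE table for 52093 identifiers, and promoters from RefSeq.

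Genes with 1 TPM or more in at least 4 of the 8 libraries were tested with limma 3.58.1 in R 4.3.3 on log2(TPM + 1), with batch as a term, a trended prior, two-sided tests and Benjamini-Hochberg adjustment over 16110 genes. The test was checked on simulated data. An interaction contrast compared batches. Alternatives changed the pseudocount, filter, scaling, weights, prior, batch term, replicate block, libraries fitted and a term for Xist. Replicate numbers were used only in the block. Members and gene lists were chosen with earlier results of these data known. Genes named were the 15 largest stable rises and falls without overlap, and up to 4 stable and 2 not passing per list. Atp12a, the 10 most abundant that passed and 10 with the smallest interaction p were also named. Fst, Bmpr2, Acvrl1, Smad6, Blmh, Arntl and Per2 were added after their values were seen. Some genes within the rule are not reported here.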

Additional observations from a re-analysis of the deposited data

Results flagged for a closer look

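For the genes named in the text, a library was set apart where its gap to the nearest library of its group, divided by the range of that group, passed Dixon's 95% critical value for 4 samples (0.829). Of 418 groups tested, 18 held such a library, and chance flags about 1 in 20 groups. Bleomycin b2r1 was the library apart in 10 of the 18. It was highest in Ear1 (0.950), Igfbp3 (0.951), Atp6v1c2 (0.927), Fmo2 (0.888) and Cbr2 (0.847), all genes that fell, and lowest in Osm (0.909), Tnip3 (0.884), Has2 (0.851) and Ccl17 (0.840), all genes that rose. In Atp6v1b1, a gene that fell, it was the lowest (0.840). In the first 9 of these genes it was thus the bleomycin library nearest to control. Bleomycin b2r2 was highest in Exo1 (0.971) and Eda2r (0.884) and lowest in Per2 (0.872). Among controls, b2r1 was highest in Cyp4b1 (0.891) and Edn3 (0.872) and lowest in Scgb1a1 (0.839), and b2r2 was lowest in S100a9 (0.921) and Loxl2 (0.906).

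The effect of bleomycin differed between batches, by the limma interaction test, in 10 genes named in the text, given here as the log2 fold change of batch 2 minus that of batch 1. Higher values in batch 2 were found for Fam124b (2.80), AI197445 (2.71), St6galnac3 (2.55), Rasgrp3, a Ras activator (2.17), Calcrl (2.09), Clock (1.51), Mob1b, a Hippo pathway adaptor (1.48), and Prex2, a Rac activator (1.48). Lower values in batch 2 were found for Usp2 (−1.98) and Vpreb3 (−1.51). In bleomycin lungs of batch 1, Fam124b, AI197445, St6galnac3, Rasgrp3, Calcrl, Clock, Mob1b and Prex2 all lay below their batch 1 controls, with log2 fold changes between −2.46 (AI197445) and −0.88 (Clock). In batch 2 their values lay between −0.20 (Prex2) and 1.44 (Fam124b).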

How the results depend on the processing

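Every gene that passed both here and under another setting kept its direction. Of 3345 genes changed, 2182 higher and 1163 lower, the replicate block left 1794 (1203 and 591), array weights gave 7481 (4076 and 3405), batch 1 alone 6341 (3141 lower), batch 2 alone 179 (139 and 40), omission of both libraries low in Scgb1a1 2099 (526 lower) and a minimum of 1 on the log2 scale 1000 (710 and 290). Lower genes numbered 654 with no filter and 1847 with quantile normalization. Leaving out 1 library at a time gave between 1598 and 3702 changed, between 1115 and 2361 higher and between 466 and 1675 lower. The count of 17 genes that differed between batches became 34 with a pseudocount of 0.1 TPM, 105 with a mean of 5 TPM, 179 with quantile normalization, 9 with all 16 libraries, and between 0 and 890 with 1 library left out. The causes were not tested. Deviations of same-numbered control and bleomycin libraries from their group mean correlated across genes with r of 0.0454 in batch 1 and −0.187 in batch 2. With 2 libraries of each group in a batch, the deviations of replicates 1 and 2 mirror each other. These values therefore cannot decide whether the numbers pair the samples. Of 165 genes named as passing, the replicate block ended the call of 11, quantile and median-ratio scaling of 3 each, all 16 libraries of 14 and batch 2 alone of 121. Cd74 missed the threshold with quantile normalization. Of 44 named as not passing, 23 passed with array weights. In batch 1 alone Arntl (−1.23), Fam124b (−1.36), Per2 (1.05) and Usp2 (0.79) had the sign opposite to the value over both batches and passed.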

Other observations

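Of 14 senescence-associated genes, 8 rose and 3 fell (3 and 3 stable). Lmnb1, the nuclear lamin that senescent cells lose, rose from 10.9, 11.1, 12.4 and 11.3 TPM to 24, 26.5, 21.3 and 37.1 TPM (log2 fold change 1.15 with SE 0.162, adjusted p = 0.00315), and the inhibitor gene Cdkn2b did not pass (0.37, adjusted p = 0.157). Of 30 guidance genes, 5 rose and 5 fell (2 and 3 stable, and 2 lower without both libraries low in Scgb1a1), with Unc5b, a netrin receptor, higher (0.85, adjusted p = 0.00506) and Efnb2, the arterial ephrin, lower (−0.98, adjusted p = 0.00971) with overlapping groups. Of 26 genes of fatty acid uptake and oxidation, 2 rose and 5 fell, of which 1 rise and no fall was stable. Without both libraries low in Scgb1a1, 1 rose and none fell, and the median of the list was −0.38 in batch 1 and 0.10 in batch 2. Lpl, lipoprotein lipase, rose from 113, 93.4, 79.5 and 91.5 TPM to 307, 224, 167 and 338 TPM (log2 fold change 1.40 with SE 0.215, adjusted p = 0.0042), while the fatty acid carrier Cd36 did not pass (−0.73, adjusted p = 0.164) and measured −1.63 in batch 1 and 0.17 in batch 2. Heat shock genes rose in 1 of 13, below the 13.5% of all genes, and cytosolic ribosome genes in 3 of 21, near it. Neither list had a stable call.

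Of 23 genes of Toll-like receptors and the inflammasome, 8 rose and 1 fell (2 and 0 stable), and 3 rose without both libraries low in Scgb1a1. Pycard, the inflammasome adaptor, went from 9.88, 11.7, 15.4 and 12.1 TPM to 26.9, 30.9, 21.1 and 24.3 TPM (log2 fold change 1.02 with SE 0.164, adjusted p = 0.00501). Of 15 GTPases induced by interferon gamma, 3 rose (3 stable) and none fell, such as Tgtp1, which has close copies (1.71, adjusted p = 0.00138), while Gbp2 did not pass (−0.06, adjusted p = 0.773). Egr2, an immediate early factor, rose from 4.79, 3.26, 2.81 and 3.85 TPM to 17.9, 14.9, 7.58 and 25.6 TPM (log2 fold change 1.81 with SE 0.315, adjusted p = 0.00673), and Nr4a1, of the same list, fell by 1.07 (adjusted p = 0.0154) with overlapping groups. Piezo1, a stretch-gated channel, rose from 29.5, 27.3, 34.5 and 26.5 TPM to 40.5, 44, 41.4 and 50.2 TPM (log2 fold change 0.57 with SE 0.115, adjusted p = 0.0117). Of 16 genes of NK and innate lymphoid cells, 1 rose and 2 fell (1 and 1 stable), against 13.5% higher and 7.22% lower of all genes. The granzyme gene Gzma did not pass (−1.16, adjusted p = 0.08).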
